A study of Mus musculus with 96 samples.

Results

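Of the 96 RNA-seq libraries of the study, 8 came from the hippocampus of mice given vehicle and killed 3 days post-injury (dpi), 4 of them from injured mice (TBI + VH) and 4 from sham mice (Sham + VH), and the effect of injury in them is described here. The libraries were taken by their labels alone, and every gene that passed the count filter entered the test, 16756 of the 32594 in the table. The animals were adult male C57BL/6 mice. TBI was a moderate controlled cortical impact (CCI), in which a piston driven through a craniectomy over the left hemisphere dents the cortex above the hippocampus, and sham animals had the anaesthesia and scalp incision but no craniectomy, so bone removal and impact cannot be told apart here. Vehicle, saline with sodium carbonate, was given intraperitoneally at 6, 24 and 48 h to both groups, and the mice were perfused with cold saline before dissection. The hippocampus was taken from the side of the impact, per the study's text. The study sequenced the samples of highest RNA quality in each group, and no source used here ties a replicate number to a shared cage, litter or day, so p-values measure only the spread between the samples fitted. These were 16 hippocampal libraries at 3 dpi, the 8 described here and those of sham and injured mice given candesartan (Sham + CD and TBI + CD).

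An impact to the cortex opens vessels, kills neurons and sets off a glial response that reaches the tissue beneath. Astrocytes thicken their processes and raise intermediate filament proteins and secreted protease inhibitors, microglia multiply and take up debris, and monocytes enter from the blood. Complement tags synapses and debris for removal, chemokines draw leukocytes, and interferon-induced genes and antigen presentation genes rise in several glial types. The hippocampus, which serves memory, is among the regions known to be vulnerable to such injury. Because the libraries are from bulk tissue, more cells of a type and more RNA per cell cannot be told apart.

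Depth was similar across the 8 libraries, from 19683802 to 27452743 counts. Hippocampal marker genes were present at a like level in both groups, the summed CPM (counts scaled to a common library total) of the list of hippocampal subfield markers being 2689, 2818, 2791 and 2599 in Sham + VH and 2416, 2828, 2547 and 2593 in TBI + VH. Thalamic markers summed to 200.5, 208, 265 and 205 CPM in Sham + VH and 203, 249.5, 198 and 226 CPM in TBI + VH, where Sham + VH 3 lay above the other sham libraries. The first principal component of the 8 libraries, 64.3% of the variance over 5000 genes, separated the groups.

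2 libraries stood apart within their groups. TBI + VH 2 lay nearest to the sham libraries, at 12.7 on the first component against 31.8 to 43.9 in the other injured libraries, and it was the lowest of the 4 injured libraries for 1220 of the 1507 genes that were higher after injury. Sham + VH 3 lay apart on the second component, at -34.2 against 6.74 to 12.97 in the other sham libraries. Genes of the choroid plexus epithelium, the tissue that secretes cerebrospinal fluid and hangs in the ventricle beside the hippocampus, summed to 9501, 6863, 645 and 7667 CPM in Sham + VH 1 to 4, in that order, and to 345, 521, 421 and 385 CPM in TBI + VH. Thus 3 sham libraries held far more choroid plexus RNA than the other 5 libraries of the comparison. Among the 16 hippocampal libraries at 3 dpi, only TBI + CD 1, from an injured mouse given candesartan, held a like amount, 4394 CPM.

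Between TBI + VH and Sham + VH 1796 genes differed, 10.7% of those tested, by edgeR's quasi-likelihood test. Such genes, called DEGs here, had a Benjamini-Hochberg false discovery rate (FDR) below 0.05 and a log2 fold change beyond 0.32 in either direction. Of these, 1507 were higher in TBI + VH (8.99% of genes tested) and 289 were lower (1.72%). Of the higher genes 717 exceeded a log2 fold change of 1 and 262 exceeded 2, and of the lower genes 135 and 79 passed the same limits.  Between the groups, the 4 values did not overlap for 1351 of the 1507 higher and 154 of the 289 lower DEGs, whereas over all genes tested 11.6% lay wholly above and 4.99% wholly below. Without TBI + VH 2 the count was 1995 (1674 higher and 321 lower), and without Sham + VH 3 it was 1886 (1467 higher and 419 lower). The median log2 fold change of all genes tested was -0.01, and this is the background for the medians of the gene lists below.

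**Figure D1:**
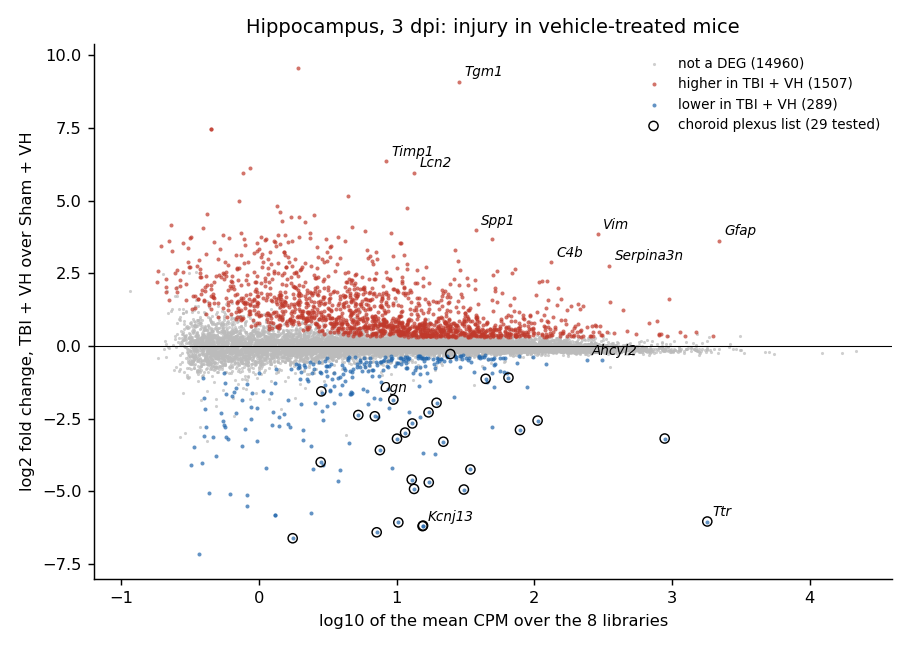
Each point is 1 of 16756 genes; the x axis is the log10 of its mean CPM over the 8 libraries and the y axis its log2 fold change, TBI + VH over Sham + VH. Red points are the 1507 DEGs higher in TBI + VH, blue points the 289 lower, grey points all other genes tested, and open circles the 29 tested members of the choroid plexus list, which lie almost entirely among the blue points.

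The largest rises were in genes nearly absent from sham hippocampus. Tgm1, transglutaminase 1, which crosslinks proteins, stood at 0.0399, 0.1248, 0.041 and 0.183 CPM in the 4 sham libraries and at 70.5, 17.8, 88.7 and 51.1 CPM in the 4 injured ones. Every injured library exceeded every sham library by far, with a log2 fold change of 9.10 (SE 0.80, FDR 5.67e-07). Timp1, the secreted inhibitor of matrix metalloproteinases, went from 0.359, 0.0416, 0.041 and 0.329 CPM to 21.3, 5.18, 22.2 and 17.8 CPM (log2 fold change 6.37, SE 0.65, FDR 2.85e-06). Lcn2, lipocalin 2, a secreted protein that binds iron-carrying siderophores, went from 0.559, 0.749, 0.123 and 0.256 CPM to 29.7, 11.4, 39.1 and 24.8 CPM (log2 fold change 5.97, SE 0.62, FDR 3.48e-06). In each of these 3 genes TBI + VH 2 was the lowest injured library and still lay well above the highest sham library. On GRCm38, the assembly named mm10 by the authors, GENCODE places Tgm1 at chr14:55700009-55713926, Timp1 at chrX:20870166-20874735 and Lcn2 at chr2:32384633-32388252.

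The other 7 of the 10 leading rises were those of Cd5l, Cst7, Cd72, Ly9, Klk6, Glycam1 and H19. Cd5l, a secreted macrophage protein, had no count in the sham libraries and 4.62, 0.604, 7.04 and 3.02 CPM in the injured ones, so that it was at least 129-fold higher against a floor of 3 counts over the sham group. Cst7, cystatin F, an inhibitor of lysosomal cathepsins, rose from 0.109 ± 0.0583 to 2.75 ± 0.859 CPM (mean ± SD, n = 4 a group) and Cd72, a lectin-like co-receptor of B cells, from 0.168 ± 0.0916 to 3.75 ± 2.38 CPM. Ly9, a SLAM family receptor of leukocytes, rose by 4.81 on the log2 scale, Klk6, a kallikrein-related serine protease, by 4.76, and Glycam1, a mucin-like ligand of L-selectin, by 4.49. H19, an imprinted long non-coding RNA, rose from 0.123 to 0.291 CPM to 3.32 to 12.4 CPM. These 10 leading genes were chosen as the largest rises among genes that averaged 1 CPM or more and did not overlap between the groups. The lack of overlap in them is therefore no result.

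The 8 rises with the smallest p values were those of C4b, Gfap, Aspg, Chil1, Serpina3n, Itgam, Vim and C4a. C4b, the mouse complement component C4, read 24.5, 30.8, 35.3 and 35.8 CPM in sham and 247, 189, 264 and 229 CPM in injured hippocampus, a log2 fold change of 2.88 (SE 0.12, FDR 1.09e-10). C4a, its near-identical neighbour, rose by 1.51 (FDR 1.33e-07), and how reads were shared between the pair is not given in the sources used here. Gfap, the intermediate filament protein of astrocytes (GENCODE chr11:102887336-102900912, GRCm38), read 238, 334, 404 and 352 CPM in sham and 4531, 2859, 4863 and 4118 CPM in injured libraries, a log2 fold change of 3.62 (SE 0.19, FDR 4.48e-09). The lowest injured Gfap value, in TBI + VH 2, was far above the highest sham value. Serpina3n, a secreted inhibitor of serine proteases, rose from 89.8 ± 17.5 to 613 ± 163 CPM, Vim, vimentin, from 37.6 ± 4.95 to 541 ± 189 CPM, and Itgam, the integrin chain CD11b of myeloid cells, from 21.8 ± 1.41 to 81.5 ± 14.9 CPM. Aspg, an asparaginase, and Chil1, a chitinase-like secreted glycoprotein, rose by 3.12 and 1.84 on the log2 scale.

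**Figure D2:**
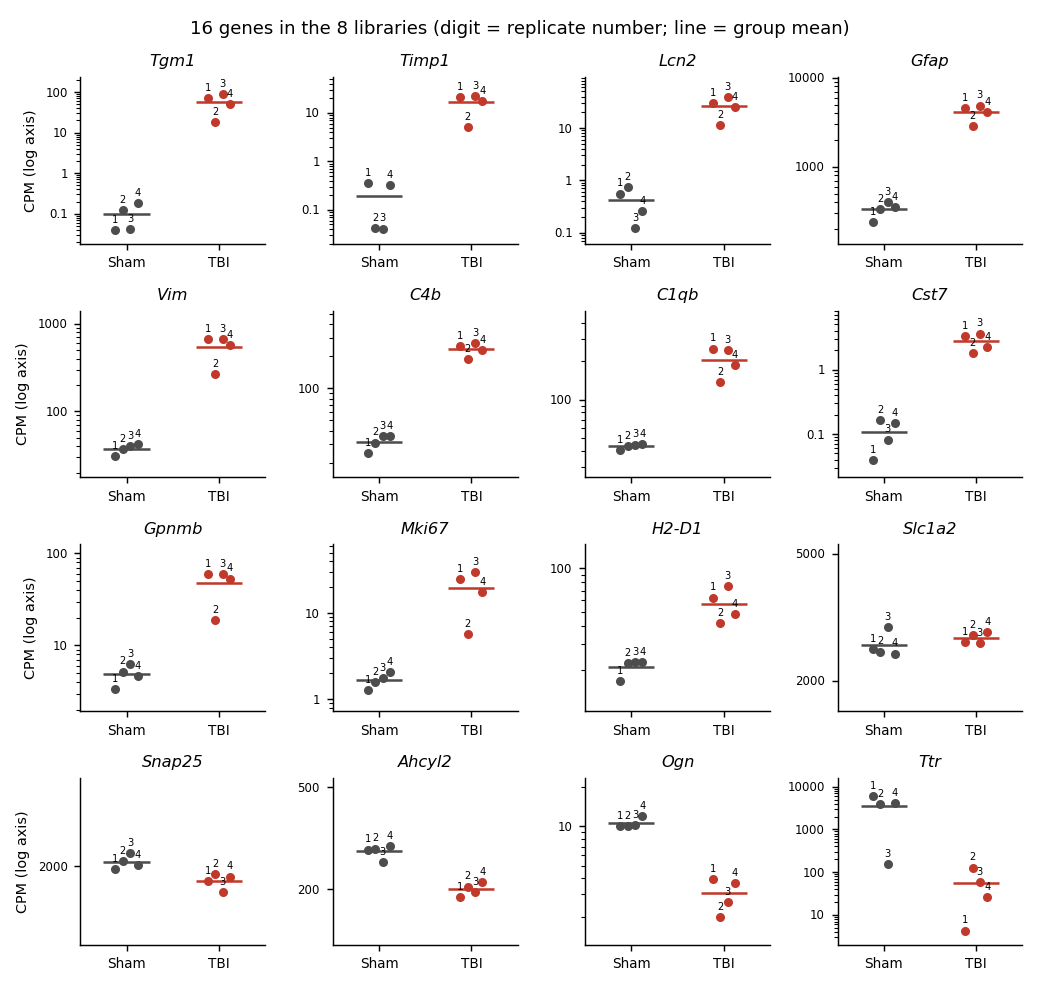
CPM on a log axis for 16 genes in the 4 Sham + VH (grey) and 4 TBI + VH (red) libraries; digits are replicate numbers and lines group means, and each panel has its own axis. From Tgm1 to H2-D1 the groups do not overlap and replicate 2 is the lowest injured library, Slc1a2 overlaps, and Ttr shows Sham + VH 3 at 153 CPM below the other sham libraries.

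Reactive astrocyte genes rose as a group. Of 31 tested, 24 were higher and none lower, with a median log2 fold change of 1.88, and their summed level went from 545, 669.6, 773 and 718 CPM in sham to 6655, 3883, 7053 and 5939 CPM in injured libraries. Cd44, a hyaluronan receptor, rose by 2.73, and Osmr, the receptor subunit for oncostatin M, by 2.16. Genes of the housekeeping work of astrocytes moved less: 12 of 19 were higher and none lower, with a median of 0.39. Aqp4, the water channel of astrocyte endfeet, rose by 1.45 (SE 0.18), from 88.8 to 147 CPM to 209.8 to 340.4 CPM. By contrast Slc1a2, the main glutamate transporter, read 2517, 2464, 2942 and 2428 CPM in sham and 2639.9, 2773, 2628 and 2836 CPM in injured libraries, which overlap, with a log2 difference of 0.07 (SE 0.07). Glul, glutamine synthetase, differed by 0.02 (SE 0.05), and Aldoc, an astrocytic aldolase, by 0.19 (SE 0.07, FDR 0.0833).

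**Figure D3:**
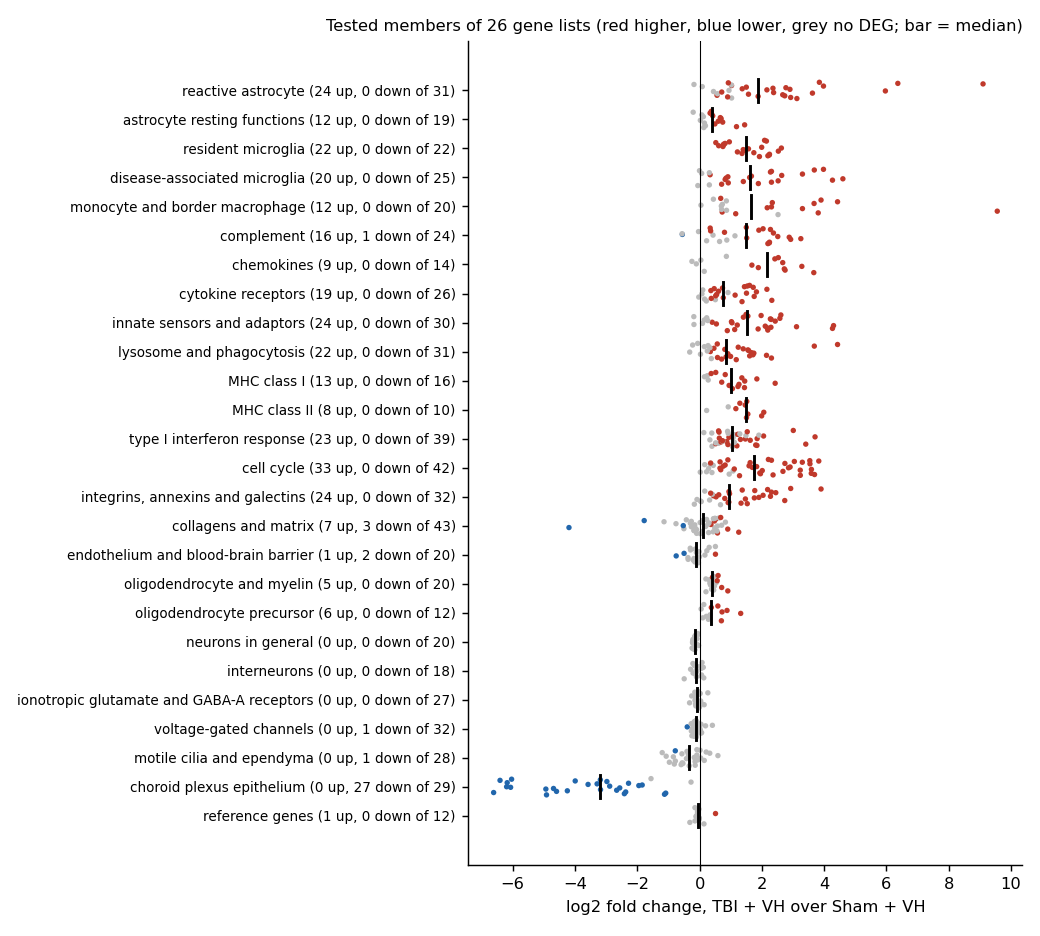
Log2 fold change (TBI + VH over Sham + VH) of each tested member of 26 gene lists; red points are DEGs higher in TBI + VH, blue points DEGs lower, grey points no DEG, and black bars list medians. Glial, immune and cell cycle lists lie to the right, lists of neurons, receptors and channels lie close to 0, and the choroid plexus list lies to the left.

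All 22 tested genes of the resident microglia list were higher after injury, with a median log2 fold change of 1.5. C1qb, a chain of the first complement component, read 40.6, 43.7, 44.6 and 44.8 CPM in sham and 251, 136, 243 and 187 CPM in injured hippocampus. Csf1r, the receptor on which microglia depend for survival, read 103, 99.6, 106 and 108 CPM and 302, 216, 307 and 245 CPM, and the fractalkine receptor Cx3cr1 read 44.3, 41.7, 43.2 and 43 CPM and 108, 74.7, 117 and 98.6 CPM. The sham values lay close together in these genes, the injured values spread more widely with TBI + VH 2 lowest, and the groups did not overlap.

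Of the 25 tested genes of the list of disease-associated microglia, 20 were higher. They included Cst7 (above), Gpnmb, a membrane glycoprotein of phagocytes, from 4.87 ± 1.2 to 47.8 ± 19.7 CPM, and Ctsd, the lysosomal protease cathepsin D, from 468 ± 63.4 to 1427 ± 407 CPM. Apoe, the lipid carrier, read 1556, 1764, 1665 and 1696 CPM in sham and 2101, 2133, 2054 and 2013 CPM in injured libraries. Its groups did not overlap and its FDR was 0.00104, but its log2 fold change of 0.31 fell short of 0.32. Of the 25 listed genes of monocytes and border macrophages 20 were tested, and 12 were higher (median 1.67). Among them was Ccr2, the receptor for the monocyte chemoattractant, at 0.12, 0, 0 and 0.146 CPM in sham and 1.46, 0.654, 1.19 and 0.811 CPM in injured libraries. A gene near 0 in sham, such as Ccr2, can pass the count filter by its injured values alone, which limits what the share shows. TBI + VH 2 stood nearest to sham, the summed level of the list being 133.8 CPM against 257.2 to 298.3 in the other injured libraries and 82.6 to 105.8 in sham.

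Few genes of other blood cells passed the count filter. Of 13 neutrophil genes in the table only 4 passed the count filter. Of these Csf3r, the G-CSF receptor, was higher and S100a8, a calcium-binding protein that fills neutrophils, was not, at 0.146 to 0.333 CPM in sham and 0.0503 to 0.433 CPM in injured libraries. Of the lymphocyte genes only 2 were tested and neither was a DEG. Beta-globin Hbb-bs, which reports red cells, read 48.1, 40.8, 4.18 and 1.87 CPM in sham and 11.4, 20.1, 10.4 and 17.7 CPM in injured libraries, and its groups overlapped.

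Complement genes rose in the main, with 16 of 24 higher and 1 lower (median 1.51). Besides C4b and the C1q chains, C3ar1, the receptor for the C3a fragment, rose from 0.758 to 1.58 CPM to 6.39 to 17.7 CPM. Clu, clusterin, an abundant secreted chaperone that restrains the terminal complex, rose by 0.35 (FDR 0.000302). The member that was lower was Cd55, decay-accelerating factor, at 10.4, 8.44, 6.03 and 10.9 CPM in sham and 6.7, 5.49, 6.07 and 6.04 CPM in injured libraries. Sham + VH 3 lay among the injured libraries in this gene.

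Chemokines rose from very low levels. Of 24 listed, 14 passed the count filter, and 9 of these were higher, with a median of 2.15. A gene near 0 in sham can pass that filter by its injured values alone. The share and median are therefore no result about chemokines as a whole. Ccl12, a ligand of Ccr2, read 0.0798, 0.0832, 0.205 and 0.256 CPM in sham and 2.12, 1.76, 2.96 and 1.4 CPM in injured libraries, a log2 fold change of 3.67 (SE 0.55), and Cxcl16, a membrane-bound chemokine, rose by 2.42 (SE 0.24). Chemokines of uninjured brain did not follow: Cx3cl1, fractalkine, made by neurons, differed by -0.10 (SE 0.09), Cxcl14 by 0.04 (SE 0.06) and Cxcl12 by -0.25 (SE 0.14), and none of these 3 was a DEG. Of 13 chemokine receptors listed, 8 were tested and 4 were higher, among them Ccr1, Ccr2 and Cx3cr1, with the same limit.

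Among cytokines and growth factors, 7 of 18 were higher and 1 lower, with a median of 0.29. Il1a, interleukin 1 alpha, rose from 0.239 to 0.533 CPM to 0.856 to 1.67 CPM, and Csf1, the growth factor of microglia, from 25.5 to 30.6 CPM to 40.2 to 58.2 CPM. Vegfa, vascular endothelial growth factor, was the lower member, at 60.2, 62.9, 51.4 and 57.1 CPM in sham and 39.4, 46.1, 39.6 and 45.8 CPM in injured libraries, which do not overlap (log2 fold change -0.44, SE 0.10, FDR 0.00471). Of 26 cytokine receptors 19 were higher and none lower (median 0.75), including Csf2rb, the shared chain for GM-CSF and interleukin 3, up by 2.32, and Il6st, the shared chain gp130, up by 0.36. Socs3, which damps signalling below these receptors, rose from 1.35 ± 0.305 to 11.5 ± 4.42 CPM (log2 fold change 3.09, FDR 7.95e-06).

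Innate sensors and their adaptors followed, with 24 of 30 higher and none lower (median 1.52). Fcgr4, an activating receptor for immunoglobulin G, rose by 4.30 (SE 0.50) and Fcgr3, a second such receptor, by 2.11 (SE 0.18). The transcription factor subunits Nfkb1 and Rela differed by 0.09 (SE 0.08) and 0.26 (SE 0.07), and neither was a DEG. Of 31 tested genes of lysosomes and phagocytosis 22 were higher (median 0.85), among them Ctsb, cathepsin B, from 551 to 558 CPM to 765 to 1162 CPM, and Lamp1, a lysosomal membrane protein, by 0.46. Psap, prosaposin, an abundant lysosomal precursor that neurons also make, differed by -0.06 (SE 0.05).

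Genes of antigen presentation rose in both classes. In class I, 13 of 16 were higher (median 1.0): B2m, the light chain, read 54.3, 62.8, 61.8 and 61.1 CPM in sham and 128, 99.1, 149.7 and 121 CPM in injured libraries, and H2-D1, a heavy chain, read 16.8, 22.3, 22.5 and 22.6 CPM and 62.7, 42, 75 and 48.5 CPM. In class II, 8 of 10 were higher (median 1.49), and 5 without TBI + VH 3. Cd74, the invariant chain, read 1.48, 1.75, 1.31 and 5.05 CPM in sham and 6.54, 5.13, 9.64 and 6.12 CPM in injured libraries, and H2-Aa read 0.599, 0.749, 0.656 and 2.78 CPM and 3.87, 2.37, 4.51 and 3.43 CPM. Sham + VH 4 was the highest sham library in both, just below the lowest injured value in Cd74 and above it in H2-Aa. MHC genes are close relatives of one another, so single counts among them are less certain than the group.

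Of 39 tested genes of the type I interferon response, 23 were higher and none lower, with a median of 1.06. The count was 12 without TBI + VH 3 and between 16 and 30 without any other of the 16 libraries, and 9 with the choroid plexus level in the model. Ifitm3, a membrane protein that blocks viral entry, rose from 6.11 to 8.93 CPM to 18.1 to 29.4 CPM (log2 fold change 1.63, FDR 1.69e-05). Stat2, a transcription factor of the pathway, differed by 0.14 (SE 0.07, FDR 0.28).

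The interferon-stimulated response element (ISRE) is the promoter site of the type I interferon pathway, and its core, GAAANN followed by GAAA, was searched on both strands in the 250 bases before the start of each gene in RefSeq (GRCm38.p6). It was present in 13 of 30 interferon list members with a promoter in that table (43.3%), in 7 of the 18 that were DEGs, in 3.09% of all tested genes with a promoter and in 5.34% of those that were higher. The 4 members with the site that rose most are shown, and their values follow. Capitals mark the site and its overlaps, and a match is a description of letters, not of a bound site.
Oas1a promoter, chr5:120907526-120907775, minus strand: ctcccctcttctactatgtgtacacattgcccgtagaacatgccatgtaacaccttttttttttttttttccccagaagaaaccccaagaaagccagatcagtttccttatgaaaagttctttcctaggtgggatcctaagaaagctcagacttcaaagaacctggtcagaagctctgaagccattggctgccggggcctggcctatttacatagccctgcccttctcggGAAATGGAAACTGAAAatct
Gbp2 promoter, chr3:142620413-142620662, plus strand: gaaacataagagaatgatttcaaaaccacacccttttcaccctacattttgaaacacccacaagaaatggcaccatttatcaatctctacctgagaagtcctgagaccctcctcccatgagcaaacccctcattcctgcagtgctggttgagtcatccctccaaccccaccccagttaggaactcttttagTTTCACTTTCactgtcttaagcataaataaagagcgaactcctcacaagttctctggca
Gbp3 promoter, chr3:142559794-142560043, plus strand: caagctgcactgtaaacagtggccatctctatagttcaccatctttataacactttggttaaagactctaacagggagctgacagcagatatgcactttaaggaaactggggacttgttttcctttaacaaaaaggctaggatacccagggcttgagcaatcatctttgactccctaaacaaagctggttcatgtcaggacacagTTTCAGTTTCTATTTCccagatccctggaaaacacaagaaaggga
Trim30a promoter, chr7:104465194-104465443, minus strand: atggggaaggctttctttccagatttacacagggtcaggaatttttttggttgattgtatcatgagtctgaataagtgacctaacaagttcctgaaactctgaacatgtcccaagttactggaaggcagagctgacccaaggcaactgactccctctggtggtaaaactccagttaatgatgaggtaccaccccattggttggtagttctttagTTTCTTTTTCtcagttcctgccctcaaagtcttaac

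Oas1a, a sensor of double-stranded RNA, read 0.279, 0.291, 0.697 and 0.439 CPM in sham and 1.54, 1.06, 3.32 and 1.14 CPM in injured libraries, a log2 fold change of 2.05 (SE 0.48, FDR 0.00649). Gbp2, a guanylate-binding GTPase, read 2.07, 2.87, 2.99 and 4.02 CPM and 10.7, 8.31, 12.6 and 11.2 CPM (log2 fold change 1.84, SE 0.23, FDR 2.3e-05). Its neighbour on chromosome 3, Gbp3, read 2.35, 3.45, 3.73 and 3.84 CPM and 13.5, 7.8, 14.5 and 10.8 CPM, and Trim30a, a ubiquitin ligase of the TRIM family, read 2.23, 2.16, 1.97 and 2.41 CPM and 6.2, 4.13, 9.61 and 5.34 CPM. None of these 4 genes overlapped between groups. In Oas1a the site is 20 and 14 bases before the start as overlapping matches, in Gbp3 45 and 39 bases, and in Gbp2 and Trim30a a single match lies 59 and 36 bases before it. Oas and Gbp genes belong to families of similar copies, which makes their separate counts less certain.

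Cell division genes rose. Of 42 tested, 33 were higher and none lower, with a median of 1.76, and 4 were higher with the choroid plexus level of each library in the model. Mki67, the proliferation antigen Ki-67, read 1.28, 1.58, 1.76 and 2.05 CPM in sham and 24.7, 5.74, 29.7 and 17.6 CPM in injured libraries, a log2 fold change of 3.54 (SE 0.49, FDR 6.57e-05). Pbk, a mitotic kinase, read 0.359, 0.582, 0.656 and 0.476 CPM and 10.7, 1.61, 10.3 and 5.49 CPM. The injured libraries spread widely in these genes, TBI + VH 2 being nearest to sham, and the groups did not overlap. Pcna, the sliding clamp of DNA replication, moved less, by 0.35 (FDR 0.0355), and Ccnd1, cyclin D1, differed by 0.40 (SE 0.13, FDR 0.0539). Over every alternative run, that with the choroid plexus level among them, the lowest log2 fold change was 2.54 for Mki67 and 2.65 for Pbk. For Ccnd1 it was 0.28 and for Pcna 0.15.

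Many mitotic genes carry a CCAAT box, bound by NF-Y, and the cell cycle homology region TTTGAA, bound by the DREAM complex. Both strands were searched in the same 250 bases. CCAAT was present in 27 of 35 cell cycle members with a promoter (77.1%) against 40.0% of tested genes, and TTTGAA in 9 of 35 (25.7%) against 12.7%. Among tested genes that were higher the shares were 41.2% and 16.8%. The E2F forms TTTCCCGC and TTTGGCGC were each present in 2 of the 35, against 1.79% and 0.894% of tested genes. The 3 members with both a CCAAT box and TTTGAA that rose most are shown, with these letters in capitals.
Cdkn3 promoter, chr14:46760291-46760540, plus strand: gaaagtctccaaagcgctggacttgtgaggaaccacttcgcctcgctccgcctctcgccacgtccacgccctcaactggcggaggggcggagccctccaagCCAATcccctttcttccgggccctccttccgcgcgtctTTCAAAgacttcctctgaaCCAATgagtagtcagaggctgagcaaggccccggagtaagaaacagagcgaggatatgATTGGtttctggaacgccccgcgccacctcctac
Mki67 promoter, chr7:135716380-135716629, minus strand: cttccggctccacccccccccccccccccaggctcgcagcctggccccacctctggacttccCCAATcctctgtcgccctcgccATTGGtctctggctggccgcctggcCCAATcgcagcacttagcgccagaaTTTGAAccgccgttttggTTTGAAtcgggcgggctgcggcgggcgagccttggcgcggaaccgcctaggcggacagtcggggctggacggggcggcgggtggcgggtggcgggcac
Top2a promoter, chr11:99024190-99024439, minus strand: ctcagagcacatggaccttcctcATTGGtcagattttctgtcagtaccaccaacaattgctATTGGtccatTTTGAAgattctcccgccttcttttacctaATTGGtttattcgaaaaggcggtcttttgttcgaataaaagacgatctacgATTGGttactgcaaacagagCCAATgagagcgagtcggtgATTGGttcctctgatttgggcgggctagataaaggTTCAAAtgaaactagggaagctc

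The Top2a window holds CCAAT 6 times, counting both strands, and those of Mki67 and Cdkn3 hold it 3 times each. Top2a, topoisomerase II alpha, which untangles replicated DNA, read 1.52, 1.58, 2.3 and 1.5 CPM in sham and 25.2, 6.19, 32.8 and 15.4 CPM in injured libraries. Cdkn3, a phosphatase that acts on cyclin-dependent kinases, read 0.0798, 0, 0.123 and 0.0732 CPM and 1.54, 0.151, 1.41 and 0.405 CPM, with TBI + VH 2 lowest of the injured libraries and no overlap.

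Matrix genes were called in both directions. Of 43 collagens and other matrix genes, 7 were higher and 3 lower, with a median of 0.12. Without Sham + VH 3 the counts were 6 and 5, and with the choroid plexus level in the model 3 and 1. Sparc, a secreted collagen-binding glycoprotein, read 415, 391, 352 and 399 CPM in sham and 596, 538, 574 and 526 CPM in injured libraries, Vcan, the proteoglycan versican, rose by 0.68 (FDR 0.00129), and Col16a1, a collagen of the fibril-associated class, by 1.26 (FDR 9.25e-05). Fn1, fibronectin, read 54.5, 54, 34.2 and 57.5 CPM and 97.1, 47.8, 99 and 82.4 CPM, in which TBI + VH 2 overlapped the sham range and the FDR was 0.0831. Of 23 protease inhibitors, metalloproteinases and plasminogen system genes 8 were higher, led by Timp1, while Timp2 and Timp3 differed by -0.05 (SE 0.17) and -0.21 (SE 0.08). Of 32 integrins, annexins and galectins 24 were higher (median 0.95), S100a4, a calcium-binding protein of motile cells, by 3.9.

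Vessel genes were also called both ways. Of 20 endothelial and blood-brain barrier genes 1 was higher (8.99% of all genes tested were) and 2 were lower (1.72% of all genes tested) (median -0.12). Kdr, the main VEGF receptor, read 15.3, 15.1, 10.4 and 18.3 CPM in sham and 8.74, 7.65, 9.61 and 9.03 CPM in injured libraries, and Ocln, occludin, a tight junction protein, read 13.8, 13.8, 11.4 and 13.3 CPM and 9.28, 9.82, 8.63 and 9.39 CPM. Neither overlapped between groups. Mfsd2a, a lipid transporter of barrier endothelium, was the higher member (0.51, FDR 0.000134). Of 17 genes of endothelial activation and angiogenesis 3 were higher and 1, Vegfa, lower; Icam1, a leukocyte adhesion molecule, rose from 0.902 to 2.41 CPM to 3.88 to 8.41 CPM, and Vcam1, a second one, differed by 0.36 (SE 0.15). Of 11 pericyte genes 1 was higher, near the share of all genes tested (8.99%).

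Iron handling and stress genes followed the injury in part. Of 17 iron and heme genes 9 were higher (median 0.56), and 5 without TBI + VH 3. Trf, transferrin, rose from 166 to 317 CPM to 426 to 757 CPM, Ftl1, ferritin light chain, by 0.89, and Hmox1, heme oxygenase 1, from 4.18 to 6.07 CPM to 11.8 to 29.6 CPM (FDR 0.0375). Leaving out any 1 of the 8 vehicle libraries other than TBI + VH 2 ended the call of Hmox1 (FDR by edgeR 0.0601 to 0.0933), and with the choroid plexus level in the model its log2 fold change was 0.49. Of 30 genes of stress and metal response 11 were higher and none lower (median 0.25), among them the metallothionein Mt1, by 1.29 (SE 0.12). The endoplasmic reticulum chaperones Hspa5 and Hsp90b1 differed by -0.02 (SE 0.10) and -0.03 (SE 0.10). Of 19 genes known from injured axons 5 were higher and none lower, and 3 were higher without TBI + VH 3. Sprr1a, a growth cone protein induced in cut neurons, read 0, 0.0832, 0 and 0 CPM in sham and 1.46, 0.352, 3.11 and 1.88 CPM in injured libraries, while the median of the list was 0.00.

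Oligodendrocyte genes were uneven among the sham animals. The 20 myelin and oligodendrocyte genes summed to 3534, 6109, 8709 and 6432 CPM in sham and to 8448, 8805, 8009.6 and 7294 CPM in injured libraries, so that Sham + VH 1 lay below and Sham + VH 3 above the other sham libraries. With all libraries 5 were higher and none lower (median 0.41), and the count was 15 without Sham + VH 3 and 3 without Sham + VH 1 or without TBI + VH 1. Mbp, myelin basic protein, differed by 0.36 (SE 0.19, FDR 0.261), whereas Cldn11, claudin 11 of the myelin junctions, rose from 56.8 to 159 CPM to 192 to 219 CPM without overlap. Of 12 precursor genes 6 were higher: Gpr17, which marks precursors committed to differentiate, read 56.7, 68.7, 79.1 and 75.5 CPM and 167, 155, 206 and 170.3 CPM, while Pdgfra, the receptor of dividing precursors, read 65.9, 60.2, 69 and 65.8 CPM and 67.7, 62.5, 69.8 and 69.8 CPM and differed by 0.05 (SE 0.07).

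General neuronal genes had log2 fold changes slightly below 0, but none was called. None of 20 general neuronal genes and none of 18 interneuron genes was a DEG, with medians of -0.15 and -0.11. All 20 general neuronal genes had a log2 fold change below 0, from -0.24 to -0.03, whereas 7 of the 18 interneuron genes were above 0. Without TBI + VH 2 there were 1 general neuronal and 2 interneuron genes that were lower DEGs. Snap25, a presynaptic SNARE protein, read 1958, 2084, 2216 and 2019 CPM in sham and 1777, 1881, 1625 and 1842 CPM in injured libraries; the groups did not overlap, but the log2 fold change was -0.22 (SE 0.07, FDR 0.0592). Gad1, which makes GABA, read 301, 301, 316 and 299.8 CPM and 259, 275, 239.8 and 279 CPM, with an FDR of 0.00694 but a log2 fold change of -0.21, too small to be called. Sst, somatostatin, and Calb2, calretinin, differed by -0.22 (SE 0.13) and -0.49 (SE 0.18). TBI + VH 2 held the highest summed level of general neuronal genes of the injured libraries, 22529.6 CPM against 19568.7 to 20097.0 in the others and 22476.9 to 23298.4 in sham.

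Few receptors and channels were called in vehicle mice, where 8.99% of all genes tested were higher and 1.72% lower. More were lower in candesartan mice, as given below. None of 27 ionotropic glutamate and GABA-A receptor subunits was a DEG (median -0.08): Gria2, an AMPA receptor subunit, differed by -0.10 (SE 0.10) and Grin1, the obligatory NMDA receptor subunit, by -0.06 (SE 0.09). Without TBI + VH 2, 2 ionotropic subunits were lower DEGs. Of 32 voltage-gated channels 1 was lower, the potassium channel Kcnh1, and of 32 G-protein coupled receptors 1 was higher, Grm3, a glutamate receptor of astrocytes, and 1 lower, the serotonin receptor Htr2c. Htr2c read 102, 65.3, 42.1 and 81.7 CPM in sham and 42.5, 33.4, 43 and 42 CPM in injured libraries; this receptor is abundant in choroid plexus, and Sham + VH 3 lay among the injured libraries. Of 20 immediate early genes 1 was higher, Fos, from 4.47 to 9.14 CPM to 9.36 to 12 CPM, while Arc differed by 0.00 (SE 0.23) and Egr1 by -0.03 (SE 0.21). Of 25 hippocampal subfield markers, Cacng5 was higher and Tdo2 lower. Tdo2, tryptophan 2,3-dioxygenase, which marks granule cells of the dentate gyrus, read 6.9, 6.86, 9.88 and 5.12 CPM in sham and 2.91, 4.38, 4.15 and 4.31 CPM in injured libraries (log2 fold change -0.87, FDR 0.0106).

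Among metabolic genes, 4 of 25 genes of cholesterol synthesis and transport were higher and 2 lower, beside 8.99% and 1.72% of all genes tested. Ch25h, which makes 25-hydroxycholesterol, rose from 0.164 to 1.2 CPM to 2.06 to 4.04 CPM. Of 23 glycolytic genes 4 were higher, the largest rise being that of Hk3, the hexokinase of myeloid cells (1.79). Of 13 genes on the list of the renin-angiotensin system, which candesartan blocks at a receptor, Ace and Mas1 were lower. The only higher one was Ctsd, the lysosomal protease given above. Mas1, a receptor for a short angiotensin peptide, read 50.8, 46.5, 47.6 and 42.5 CPM in sham and 33.7, 37, 35.6 and 36.5 CPM in injured libraries without overlap. In candesartan mice its log2 fold change after injury was -0.09 (FDR 0.33 by edgeR). Of 12 reference genes 1 was higher, near the share of all genes tested. It was the ribosomal protein gene Rplp0 (0.51, FDR 4.93e-05), and none of the others was a DEG.

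The largest decreases after injury were in genes of the choroid plexus. Of its 29 tested genes 27 were lower (median -3.19), and the 10 largest decreases among genes that averaged 1 CPM or more and did not overlap were those of Cdh3, Tmem72, Kcnj13, Slc4a5, Ttr, F5, Aqp1, Folr1, Cldn2 and Prr32, of which only Prr32 is not on the list. Ttr, transthyretin, the leading secreted protein of the plexus, read 6123, 3857, 153 and 4089 CPM in Sham + VH 1 to 4 and 4.33, 129, 58.5 and 26.6 CPM in TBI + VH 1 to 4. Sham + VH 3 thus lay near the highest injured library and far from the other sham libraries, and the log2 fold change of -6.04 had an SE of 1.53 (FDR 0.0117). Kcnj13, an apical potassium channel, read 39.9, 38.9, 1.56 and 41.1 CPM and 0.25, 0.906, 0.397 and 0.184 CPM, and Folr1, the folate receptor, 47.7, 38.3, 3.16 and 42.3 CPM and 0.791, 2.06, 1.01 and 1.33 CPM. The 2 members that were not DEGs, Slc5a5 and Wfikkn2, overlapped between groups.

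Many of the other decreases rested on the same libraries. Sham + VH 3 was the lowest sham library in 237 of the 289 lower DEGs (82.0%), against 30.8% of all genes tested. The 289 include the 27 of the choroid plexus list, and it was the lowest in all 27. Krt18, an epithelial keratin, read 11.6, 9.23, 1.27 and 10.6 CPM in sham and 0.375, 1.21, 0.831 and 0.847 CPM in injured libraries, and Ace, angiotensin-converting enzyme, read 125, 101, 14.8 and 101 CPM and 12.7, 13.3, 12.4 and 11.5 CPM. Abca4, a retinoid transporter, Baiap2l1, an actin-binding scaffold, Epn3, an endocytic adaptor, Lmx1a, a roof plate transcription factor, and Drc7, a part of the motile cilium, fell by more than 2 on the log2 scale, and Sham + VH 3 was the lowest sham library in each, as it was in Gyltl1b, a glycosyltransferase, and in the uncharacterised transcript AK013627. Of 28 genes of motile cilia and ependyma 1 was lower (median -0.35), and the count was 0 to 3 without any 1 library other than TBI + CD 1, without which it was 9. With the choroid plexus level of each library added to the model, 664 DEGs were found, of which 643 were higher and 21 lower; 609 of the 1507 rises and 8 of the 289 decreases were kept, and 69 decreases and none of the rises turned sign. In that model 19 of 31 reactive astrocyte genes, 19 of 22 resident microglia genes and 17 of 24 complement genes were higher, whereas 4 of 42 cell cycle genes and 9 of 39 interferon genes were. The cell cycle and interferon members named here kept log2 fold changes above 0 under every alternative run. The lowest over those runs was 1.49 for Oas1a, 1.52 for Ifitm3, 1.70 for Gbp2 and 0.10 for Stat2. Counts of higher members also fell by more than 1.5 times in other lists. They were 13 of 30 innate sensors and adaptors, 13 of 32 integrins, annexins and galectins, 12 of 26 cytokine receptors, 2 of 18 cytokines and growth factors, 8 of 16 class I and 4 of 10 class II antigen presentation genes, and 6 of 20 genes of monocytes and border macrophages. They were 7 of 19 astrocyte housekeeping genes, 5 of 17 iron and heme genes, 3 of 43 matrix genes, 2 of 23 protease inhibitor, metalloproteinase and plasminogen genes, 2 of 19 axon injury genes, 1 of 23 glycolytic genes, 3 of 12 oligodendrocyte precursor genes and none of 20 myelin genes. None of the choroid plexus genes and 2 of the 20 general neuronal genes were lower in that model. The cause of these losses was not tested.

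**Figure D4:**
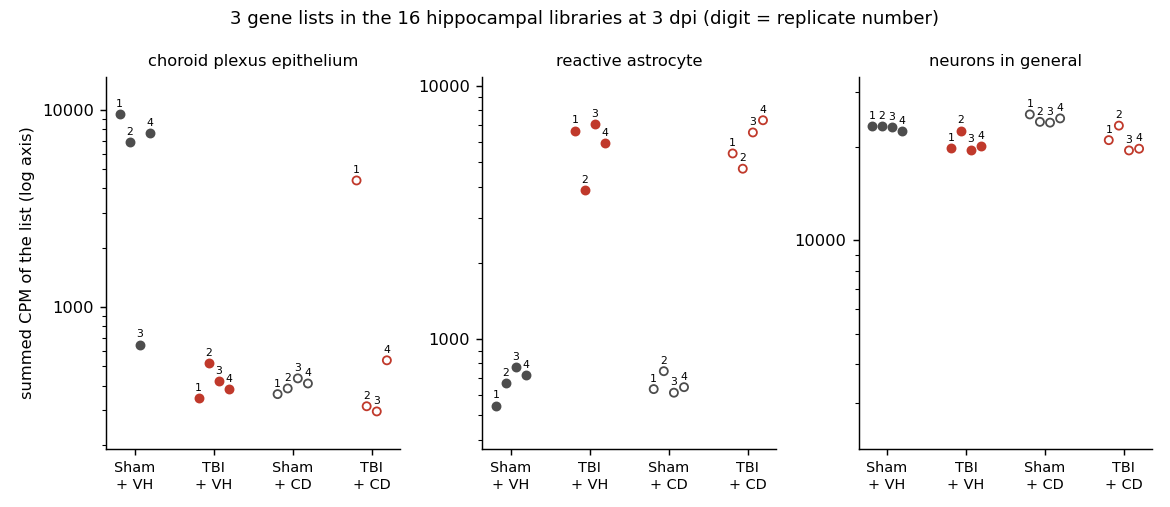
Summed CPM, on log axes, of 3 gene lists in the 16 hippocampal libraries at 3 dpi; filled points are vehicle and open points candesartan, grey sham and red TBI, and digits are replicate numbers. Choroid plexus genes are high in Sham + VH 1, 2 and 4 and in TBI + CD 1, and reactive astrocyte genes are higher in each TBI library than in any sham library. Neuronal genes are lower in each TBI library than in the sham libraries of its arm, except in TBI + VH 2, by little on this axis.

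Other decreases were seen against each sham library. They were named for their small p values in this same contrast, so the lack of overlap in them is no result. Ahcyl2, a relative of S-adenosylhomocysteine hydrolase that binds the inositol trisphosphate receptor, read 286, 288, 256 and 294 CPM in sham and 186, 205, 195 and 213 CPM in injured libraries (log2 fold change -0.49, SE 0.07, FDR 4.69e-05). Igsf1, an immunoglobulin superfamily membrane protein, read 16, 17.4, 17.9 and 17.4 CPM and 9.74, 10.2, 9.39 and 9.91 CPM, and Ogn, osteoglycin, a small matrix proteoglycan, 10.1, 10.1, 10.2 and 12 CPM and 3.96, 2.01, 2.6 and 3.68 CPM. In these 3 genes Sham + VH 3 lay with the other sham libraries or, in Ahcyl2, below them but above every injured one. Atp2b3, a plasma membrane calcium pump, fell by 0.49 on the log2 scale, Inha, the inhibin alpha chain, by 0.44, and Cnst, consortin, which carries connexins to the membrane, by 0.37. Stk39, a kinase that sets ion cotransport, read 96.6, 92.6, 68.2 and 101 CPM in sham and 62, 55.5, 60.9 and 61.1 CPM in injured libraries, and Crhr2, a receptor of the corticotropin-releasing hormone family, 6.94, 5.66, 3.36 and 7.61 CPM and 1.92, 2.06, 1.84 and 1.69 CPM. In these last 5 genes Sham + VH 3 was the lowest sham library, though above every injured one. With the choroid plexus level in the model Igsf1 (-0.68) and Ogn (-1.25) stayed DEGs, whereas Ahcyl2 (-0.29, FDR 0.0263), Atp2b3 (-0.22, FDR 0.253), Inha (-0.39, FDR 0.0691), Cnst (-0.23, FDR 0.167), Stk39 (-0.21, FDR 0.282) and Crhr2 (-0.65, FDR 0.122) did not, by edgeR, nor did Vegfa (-0.26), Kdr (-0.45), Ocln (-0.13) and Tdo2 (-0.99).

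The same injury was profiled in mice given candesartan, an angiotensin receptor blocker (TBI + CD against Sham + CD), with no library in common. There 2410 genes were higher (14.4%) and 950 lower (5.67%). The genes compared were chosen in vehicle mice, so their vehicle values are a description. Of the 1507 genes higher in vehicle mice, 1402 (93.0%) were DEGs in the same direction in candesartan mice and 1500 had the same sign, with median log2 fold changes of 0.95 in vehicle and 1.12 in candesartan mice. Of the 289 genes lower in vehicle mice 39 (13.5%) were DEGs in the same direction and 104 had the same sign, and their median was -0.91 in vehicle and 0.20 in candesartan mice. Gfap rose by 3.63, Tgm1 by 9.87, Timp1 by 6.41 and C4b by 2.90 on the log2 scale in candesartan mice. There 12 of 27 ionotropic receptor subunits (median -0.27) and 19 of 32 voltage-gated channels (median -0.34) were lower DEGs. So were 10 of 32 G-protein coupled receptors and 6 of 20 immediate early genes, beside 5.67% of all genes. In vehicle mice these counts were 0, 1, 1 and 0. Whether these lists differ between the arms was not tested.

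The 39 genes lower in both arms were picked on both contrasts and are described without a test. Among them was Hes5, a Notch target of astrocytes and neural stem cells, at 7.9, 7.99, 8.77 and 8.82 CPM in Sham + VH and 4.33, 5.39, 4.95 and 4.38 CPM in TBI + VH, which do not overlap. Npy1r, a receptor of neuropeptide Y, and Pdyn, the precursor of dynorphins, fell by 0.33 and 0.62 in vehicle and by 0.61 and 0.85 in candesartan mice. Ahcyl2, Igsf1, Ogn, Atp2b3 and Tdo2 were also among the 39. Sham + VH 3 was the lowest sham library in 13 of these 39 genes (33.3%), beside 30.8% of all genes tested. Of the 39, 14 stayed DEGs without each of the 16 libraries in turn and 5 with the choroid plexus level in the model, among them Hes5, Igsf1, Ogn and Usp29.

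**Figure D5:**
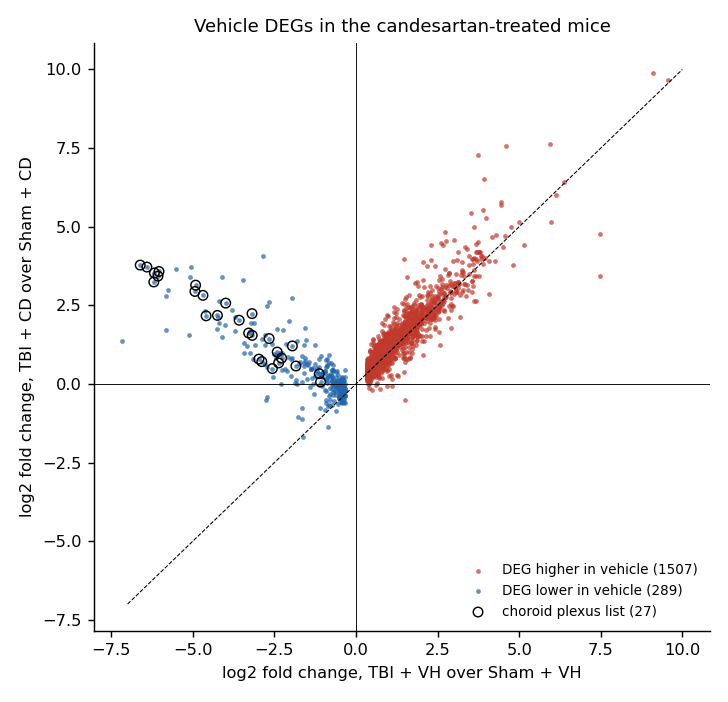
Log2 fold change after injury of the 1796 vehicle DEGs in vehicle mice (x axis) and in candesartan mice (y axis); red are the 1507 higher and blue the 289 lower in vehicle, open circles are the 27 choroid plexus DEGs, and the dashed line marks equal values. The red points lie along the dashed line, while the choroid plexus genes lie below 0 in vehicle and mostly above 0 in candesartan mice.

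The difference between the arms was tested as an interaction. By edgeR no gene passed, the lowest FDR being 0.0616, although 2196 genes had an unadjusted p under 0.05, and DESeq2 gave 322 genes. Without Sham + VH 3 the count by edgeR was 431, of which 366 had the lower value in vehicle mice. The candesartan log2 fold changes of Ttr (3.58), Kcnj13 (3.24) and Folr1 (2.82) include TBI + CD 1, the injured library with high choroid plexus RNA. The count of 0 by edgeR does not show that the arms respond alike.

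Across regions at 3 dpi in vehicle mice, more genes responded in the hippocampus. In one model over the 48 libraries of the 3 regions, 71 genes were higher and 3 lower in the thalamus, and none was a DEG in the hypothalamus by edgeR, where 488 genes had an unadjusted p under 0.05. Of the 1507 genes higher in hippocampus 70 (4.64%) were higher in the thalamus, which is 98.6% of the thalamic list. The 1507 were chosen on the hippocampal contrast, so their median log2 fold change there, 0.95, is a description, beside 0.17 in thalamus and 0.07 in hypothalamus. The response itself differed for 690 genes between hippocampus and thalamus (3.88% of 17788 tested), with 625 (3.51%) higher and 65 (0.365%) lower in hippocampus. Between hippocampus and hypothalamus it differed for 1036 genes (5.82%), with 876 (4.92%) higher and 160 (0.899%) lower in hippocampus. Labels do not say whether regions came from the same mice.

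Microglial genes also rose in the thalamus. Of 22 resident microglia genes 18 were also higher there, with a median of 0.58 against 1.47 in the hippocampus of the same model, and 16 of the 22 differed between the regions. Reactive astrocyte genes were higher in 3 of 31 in the thalamus (median 0.32), and 14 differed. Among genes that averaged 1 CPM or more the largest differences were those of Lcn2 (5.93 in hippocampus and -0.85 in thalamus, FDR of the difference 0.00121), Timp1 (6.34 and 0.95, FDR 0.00124), H19 (5.12 and 0.28, FDR 5.12e-05) and Klk6 (4.73 and 0.38, FDR 8.49e-06). On the other side stood Cdh3, Otx2 and Prlr of the choroid plexus list and the collagen gene Col8a1, whose hippocampal values rest on Sham + VH 1, 2 and 4 as above. The choroid plexus list also had a median below 0 in the thalamus, -1.54, with 2 of 29 members among the 3 thalamic decreases, and 3 of the 29 differed between the regions. Against the hypothalamus the largest positive differences were those of Tgm1 (8.42, SE 1.52), Lcn2, Timp1 and H19, and the largest negative ones those of the choroid plexus genes Kcnj13, Folr1, F5 and Cldn2.

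The hippocampal response to injury was smaller at 29 dpi. At 29 dpi 73 genes were higher and 4 lower in vehicle mice, and 65 of the 73 (89.0%) were among the 1507 of 3 dpi, of which they are 4.31%. In the later cohort vehicle came from an implanted pump after the first injection, and the cohorts are in separate tables of counts, so day, delivery and cohort cannot be told apart. The response differed for 543 genes (3.16%), with 527 (3.07%) higher and 16 (0.0931%) lower at 3 dpi. None of 42 cell cycle genes was a DEG at 29 dpi, where their median was 0.09, and 21 differed between the days. Mki67 had a log2 fold change of 0.04 at 29 dpi (FDR of the difference 0.000405) and Pbk of 0.31 (FDR 0.0062).

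Of the reactive astrocyte genes 8 of 31 were higher at 29 dpi, with a median of 1.02, and 10 differed from 3 dpi. Complement genes were higher in 9 of 24 and disease-associated microglia genes in 8 of 25 at 29 dpi, with medians of 0.49 and 0.41, whereas none of 39 interferon genes was a DEG then (median 0.36). At that day 73 of 17181 genes tested were higher, and 3 of the 39 interferon genes differed between the days. Timp1 went from 6.36 to 1.38 and H19 from 5.14 to 0.78 (FDR of the differences 0.00381 and 0.00315). Differences in the other direction were few, and among genes that averaged 1 CPM or more Ogn, at -1.78 and 0.07, had the largest. It was followed by AK087743, an uncharacterised transcript, Dll1, a Notch ligand, and Cnih3, an AMPA receptor auxiliary protein, none of these 3 being a DEG at either day. The choroid plexus list also had a median below 0 at 29 dpi, -1.70, where 0 of 29 members were DEGs and 0 differed between the days. The 289 genes lower at 3 dpi had a median of -0.49 at 29 dpi.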

How the data were processed

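Hippocampal RNA was sequenced by the authors as stranded, paired-end mRNA libraries, aligned to mm10 with MapSplice and counted with HTSeq 0.9.1. The deposited values are raw counts per gene symbol. The annotation, the strand setting of the counting and the rule for reads matching several genes are not given in the sources used here. Members and gene lists were chosen with earlier results of these data known. Counts of the 16 hippocampal libraries at 3 dpi were filtered (filterByExpr), scaled by TMM and fitted by group in edgeR 4.0.16 (R 4.3.3) with the quasi-likelihood test and a prior count of 0.125. Genes were called at a Benjamini-Hochberg FDR below 0.05 with a log2 fold change beyond 0.32 either way, the limits of the study. SE is the log2 fold change over the root of F. Regions were compared in 1 fit of 48 libraries, days in 1 of 32. Alternatives were DESeq2 1.42.0, RLE size factors, no filter, a prior count of 2, the 8 libraries alone, a replicate block, the choroid plexus level as covariate and leaving out each library.

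The genes named are the 10 largest changes each way with at least 1 CPM and no overlap, the same for decreases outside the choroid plexus, cilia and meninges lists, the 8 smallest p values each way, the 4 most abundant members and the largest change each way of each list, and the 4 largest differences each way of each interaction. Ccr1, Cd44, Cd55, Cdkn3, Dcx, Fos, Gbp2, Gbp3, Hes5, Mas1, Npy1r, Oas1a, Ocln, Osmr, Pdyn, Slc22a8, Slc5a5, Top2a, Trim30a, Usp29 and Wfikkn2 were named after their values were seen. Promoters are from RefSeq GRCm38.p6 and positions from GENCODE. The fit was tested on simulated data. Totals of 19683802 to 27452743 counts limit precision for genes with few counts. Some list members are not reported here by name.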

Additional observations from a re-analysis of the deposited data

Results flagged for a closer look

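In 326 groups of 4 values, the genes and summed lists named here, 27 had a lowest or highest library far from the other 3 by Dixon's criterion, which chance gives in about 1 of 20 groups. Of these 11 were in Sham + VH 3 and 6 in TBI + VH 2, the libraries described above as standing apart, and none was in TBI + VH 3. Sham + VH 3 was far below the other sham libraries in Kcnj13 (1.56 CPM), Tmem72 (0.451), Col8a1 (0.984), Prlr (5.70), Fn1 (34.2), Vcam1 (24.0) and Kcnh1 (60.6), and far above them in Gad1 (315.9), Pcna (20.8), Top2a (2.30) and the summed thalamic markers (265.1 CPM). TBI + VH 2 was far below the other injured libraries in Aqp4 (209.8 CPM), Gpnmb (18.7), S100a4 (7.6) and Htr2c (33.4), and far above them in the neuronal genes Cx3cl1 (642.4) and Grin1 (712.1). Sham + VH 4 was high in Cd74 (5.05 CPM), H2-Aa (2.78) and Ogn (11.96), and Sham + VH 1 was low in C3ar1 (0.758) and H2-D1 (16.8). Sham + VH 2 was high in Grin1 (717.3 CPM) and Sprr1a (0.0832). TBI + VH 1 was low in Tdo2 (2.91 CPM) and AK087743 (1.54), and TBI + VH 4 in Nfkb1 (20.7 CPM).

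The response to injury differed between hippocampus and thalamus for 690 genes, between hippocampus and hypothalamus for 1036 and between 3 and 29 dpi for 543, by the interaction term in edgeR. Against the thalamus the log2 difference was 6.79 for Lcn2, 5.39 for Timp1, 4.84 for H19 and 4.35 for Klk6, and -6.26 for Cdh3, -3.44 for Col8a1, -3.24 for Otx2 and -2.89 for Prlr. Against the hypothalamus it was 8.42 for Tgm1, 5.88 for Lcn2, 5.79 for Timp1 and 5.24 for H19, and -8.13 for Kcnj13, -5.88 for Folr1, -5.57 for F5 and -5.23 for Cldn2. Between 3 and 29 dpi it was 4.98 for Timp1, 4.36 for H19, 3.50 for Mki67 and 3.45 for Pbk, and -1.85 for Ogn, -0.999 for AK087743, -0.53 for Dll1 and -0.45 for Cnih3. The genes with negative differences against other regions were lowest in Sham + VH 3 among the sham libraries.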

How the results depend on the processing

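Of the 156 genes named here, 119 were DEGs, and 103 of these stayed so without each of the 16 hippocampal libraries in turn and 60 under every alternative run. The 16 that lost the call without at least 1 library were Cacng5, Cd55, Cd74, Fos, H2-Aa, Hmox1, Htr2c, Il6st, Kcnh1, Lmx1a, Npy1r, Pcna, Pdyn, Slc22a8, Tubb2b and Usp29. Over all genes 1123 rises and 142 decreases stayed DEGs without each library in turn. The count of 1796 DEGs went from 1437 without TBI + VH 3 to 1995 without TBI + VH 2, with 1240 to 1674 higher and 194 to 419 lower. It stayed within 1.5 times 1796 with DESeq2, with RLE size factors, with no filter on low counts and with the 8 libraries alone. By FDR alone 513 genes were lower. With a log2 fold change above 1 there were 852 DEGs, 717 higher and 135 lower. In the candesartan arm FDR alone gave 5570 DEGs, 2463 of them lower, and leaving out 1 library gave 631 to 1083 lower.

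With the choroid plexus level as a covariate there were 664 DEGs, 643 higher and 21 lower. The log2 fold change then turned to 0.14 for Ace, 0.026 for Cd55, 0.21 for Col8a1, 0.060 for Drc7, 0.053 for Folr1, 0.13 for Lmx1a, 0.26 for Otx2, 0.42 for Tmem72 and 0.034 for Ttr, none of them a DEG in that model. The cause was not tested.

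The difference between the vehicle and candesartan arms, 0 genes by edgeR, was 322 by DESeq2 (81 higher in vehicle and 241 lower) and 118 with no filter on low counts (16 and 102). Leaving out 1 library gave 0 to 431 genes (0 to 65 higher and 0 to 366 lower), the most without Sham + VH 3, then 143 without TBI + CD 2, 50 without TBI + CD 3, 22 without TBI + VH 1 and 1 without Sham + CD 1. The cause was not tested. Between regions, leaving out 1 library gave 454 to 913 genes against the thalamus (419 to 813 higher and 35 to 123 lower in the hippocampus) and 805 to 1205 against the hypothalamus (690 to 1039 and 110 to 257). Between days it gave 321 to 762 genes (311 to 734 higher at 3 dpi and 9 to 28 lower). The fewest in each total came without TBI + VH 3 and the most without TBI + VH 2.

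Same-numbered sham and injured libraries had deviations that correlated by -0.05, 0.14, -0.08 and -0.06, so the numbers were not taken as pairs. With a replicate block 1811 genes were DEGs between TBI + VH and Sham + VH, and 106 differed between the arms (35 higher and 71 lower in vehicle). With 4 libraries a group, a simulated log2 change of 0.5 was found in 44.9% of 49 genes and one of 1 in 82%, so small changes can be missed with libraries like these.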

Other observations

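Genes of neural stem cells and newborn neurons, which the dentate gyrus keeps into adult life, changed little. Of 19 tested 1 was higher and none lower, beside 8.99% and 1.72% of all genes tested, with a median log2 fold change of 0.13. The higher gene was Tubb2b, a tubulin of growing neurons, at 199, 181, 206 and 182 CPM in sham and 264, 212, 257 and 231 CPM in injured libraries (FDR 0.0385). Dcx, doublecortin, the usual marker of newborn neurons, read 23.9, 20.9, 26.3 and 24.2 CPM and 21.6, 20.4, 21.7 and 24.1 CPM and its groups overlapped. Nes, nestin, an intermediate filament of stem cells that reactive astrocytes also make, read 10.2, 12.3, 10.3 and 13.4 CPM in sham and 25.5, 11.7, 32.4 and 18.9 CPM in injured libraries (FDR 0.0977), where TBI + VH 2 lay within the sham range and the other injured libraries above it.

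Of 18 genes of meninges and fibroblasts none was higher and 2 were lower, beside 8.99% and 1.72% of all genes tested. The lower ones were Ogn and Slc22a8, an organic anion transporter. Slc22a8 read 16.1, 14.3, 8.24 and 20.7 CPM in sham and 11, 8.51, 9.14 and 6.96 CPM in injured libraries, with Sham + VH 3 the lowest sham library. None of 12 cortical markers was a DEG. The 47 lists cover 903 of the tested genes, and 1195 of the higher and 245 of the lower DEGs are in none of them.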
